A study of Mus musculus with 6 samples.

Results

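Niche adhesion and homing molecules are the 36 genes through which a blood stem or progenitor cell holds on to the bone marrow and finds its way back to it, and they were read here in sorted Lin-Sca+Kit+ (LSK) cells of OgaVav-Cre and wildtype mice. The members were taken by gene symbol from a deposited table of 53445 transcribed loci, using the locus with the greatest counted length where a symbol occurred more than once. All 36 were found and all 36 passed the filter on low counts that left 22032 loci for testing. Itga4, Itgb1 and Itgb5 each had more than 1 locus under the symbol.

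Poly(A) RNA-Seq was carried out on LSK cells from 3 OgaVav-Cre and 3 wildtype mice, all female, on a C57BL/6 background and about 12 weeks old, with at least 20000 cells sorted from each mouse. In the OgaVav-Cre mice, bred from Oga fl/fl mice, both floxed Oga alleles were the target of Vav-iCre, which is active throughout the blood lineage. The marrow stroma around the cells was thus not the target of the deletion. Mice labelled wildtype served as controls. Oga encodes O-GlcNAcase, the enzyme that removes the O-GlcNAc sugar from nuclear and cytoplasmic proteins.

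Stem cells are held in the marrow by a few families of surface molecules. Integrins are pairs of an alpha and a beta chain that bind matrix proteins or counter-receptors of the immunoglobulin superfamily, and they bind firmly only after talin and kindlin-3 act on the beta chain inside the cell. Selectins and their ligands let circulating cells roll on vessel walls, cadherins join like cells to each other, and the chemokine Cxcl12 draws and retains cells that carry its receptor Cxcr4.

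The 6 libraries held between 19318056 and 27064389 reads on loci, and 3 reads corresponded to between 0.109 and 0.156 counts per 1000000 reads (CPM, scaled by TMM as all CPM values here). Oga, listed under its older symbol Mgea5, had 104, 109 and 110 reads in the OgaVav-Cre libraries against 3164, 2970 and 2736 reads in the wildtype libraries, in replicate order. Both genes behind the sort were read in every library, with Kit at 251 to 602 CPM and Ly6a, which encodes Sca-1, at 42.3 to 218 CPM, and none of 10 stem and progenitor markers was at 0 in any library. Markers of mature blood cells were read as well, and OgaVav-Cre replicate 3 stood apart. Its 8 erythroid markers summed to 2382 CPM against 231 to 746 CPM in the other libraries, its 8 B cell markers to 1255 CPM against 243 to 867 CPM, and its 10 stem and progenitor markers to 1220 CPM against 1576 to 2716 CPM. Plasma cell RNA was uneven too. The 11 plasma cell markers summed to 112982 CPM in OgaVav-Cre replicate 1 against 12187 to 56167 CPM in the other libraries, and immunoglobulin loci took 17.3% of its reads against 2.11% to 9.38% elsewhere. In sorted bulk samples of this kind, fewer cells of a type and less RNA per cell cannot be told apart.

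The members covered a wide range of levels. Mean RPKM (reads per kilobase of counted length and 1000000 reads, as deposited) over the 6 libraries ran from 0.134 for the cadherin Cdh2 to 108.9 for the homing receptor Cxcr4, with a median of 5.07. There were 12 members above 10 RPKM and 9 below 1 RPKM. After Cxcr4 the highest per length were Cd47, the surface signal that restrains phagocytes, then Itgb1, the beta chain shared by most matrix integrins, and Tln1, which encodes talin-1. Cd47 measured 54.0 ± 5.24 RPKM (SD, n = 3) in the OgaVav-Cre libraries against 53.8 ± 4.06 in the wildtype libraries. Itgb1 measured 44.3 ± 7.51 and 40.2 ± 1.90 RPKM, and Tln1 42.2 ± 5.12 and 40.7 ± 4.53 RPKM, in the same order. Libraries of Itgb1 and Tln1 overlapped in level, while the wildtype libraries of Cd47 lay above the wildtype libraries of both. At the other end, Mcam had 5 to 20 reads in the OgaVav-Cre libraries against 2 to 32 reads in the wildtype libraries, and was the single member at or under 3 reads in any library (2 reads in wildtype replicate 2).

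**Figure D1:**
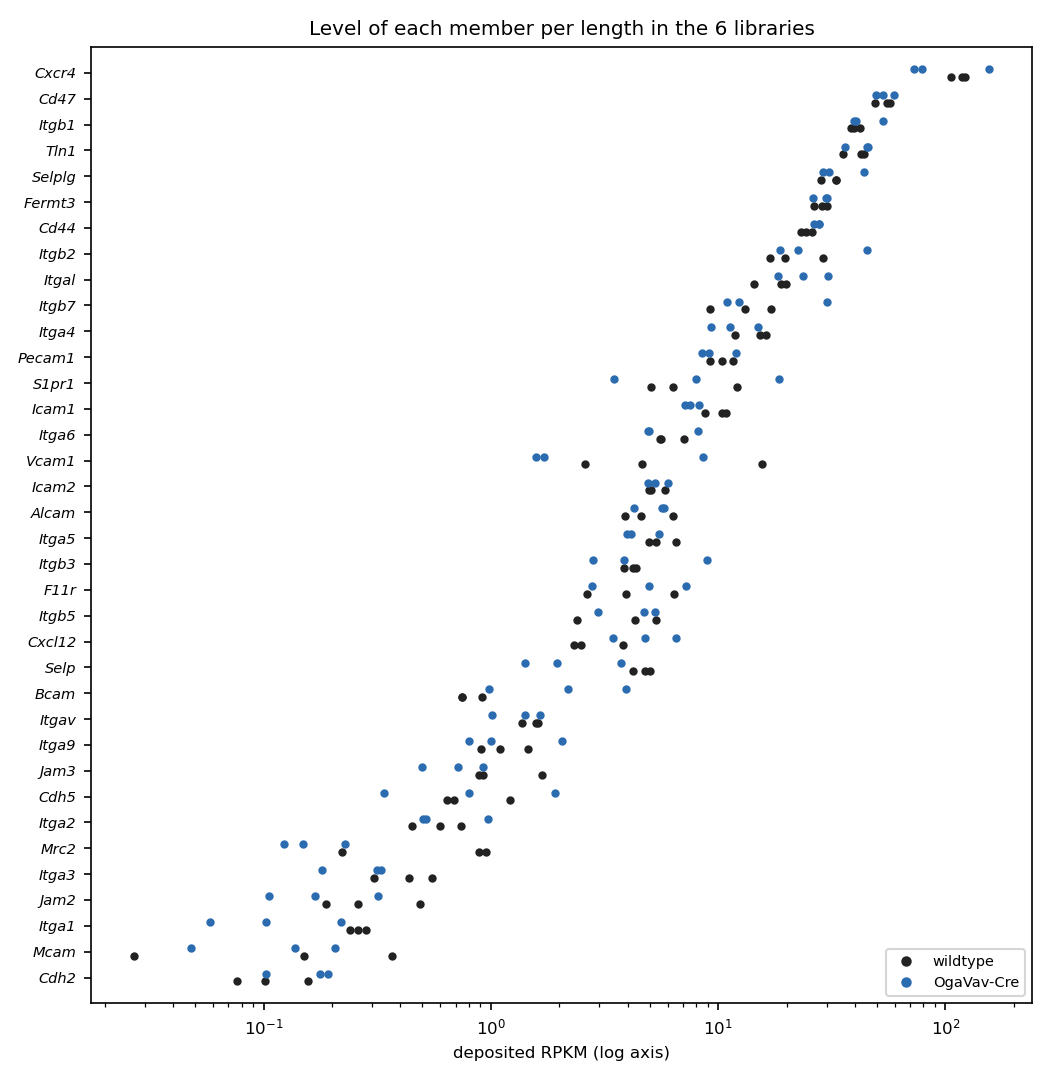
Deposited RPKM of the 36 members on a log axis, ordered by their mean over the 6 libraries, with a point for each OgaVav-Cre (blue) and wildtype (black) library. Cxcr4, at a mean of 108.9 RPKM, stands highest and Cdh2, at 0.134 RPKM, lowest, and points of the genotypes interleave for most members.

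The comparison of genotypes asked whether Oga deletion changed the RNA of these molecules in LSK cells. No member passed an adjusted p of 0.05 together with a log2 fold change beyond 1 in edgeR's quasi-likelihood test, adjusted by Benjamini-Hochberg over all loci tested, and none passed the adjusted p alone. Over all loci 7 were called, or 0.0318%. The smallest adjusted p of a member in edgeR was 0.412. DESeq2 called 2 members and limma-voom none. At an unadjusted p under 0.05 there were 5 members (13.9%) against 10.6% of all loci tested. Of these, Bcam, Cxcl12 and Itgal were higher in OgaVav-Cre, against 4.38% of loci higher, and Mrc2 and Selp were lower, against 6.27% of loci lower. Bcam was reported as increased by the study in these libraries before the members were chosen, so its place in this count was known beforehand. The fitted sign was positive for 22 members and negative for 14, and the median log2 fold change of the members was 0.11 against 0.0041 over all loci tested.

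Counted without a model, the libraries of the 2 genotypes did not overlap for 5 members (13.9%), a smaller share than the 17.5% of all loci tested. Bcam and Cd44 were higher in every OgaVav-Cre library, against 7.5% of loci, and Selp, Icam1 and Itga1 were lower, against 9.97% of loci. With 3 libraries a genotype an exact permutation test of 1 gene cannot give a p under 0.1. The precision differed greatly between members. For 17 members the 95% interval of the log2 fold change lay within -1 and 1, so a change of the size the cutoff asks for lay outside it, and for the other 19 the interval reached past 1 or both of these limits.

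**Figure D2:**
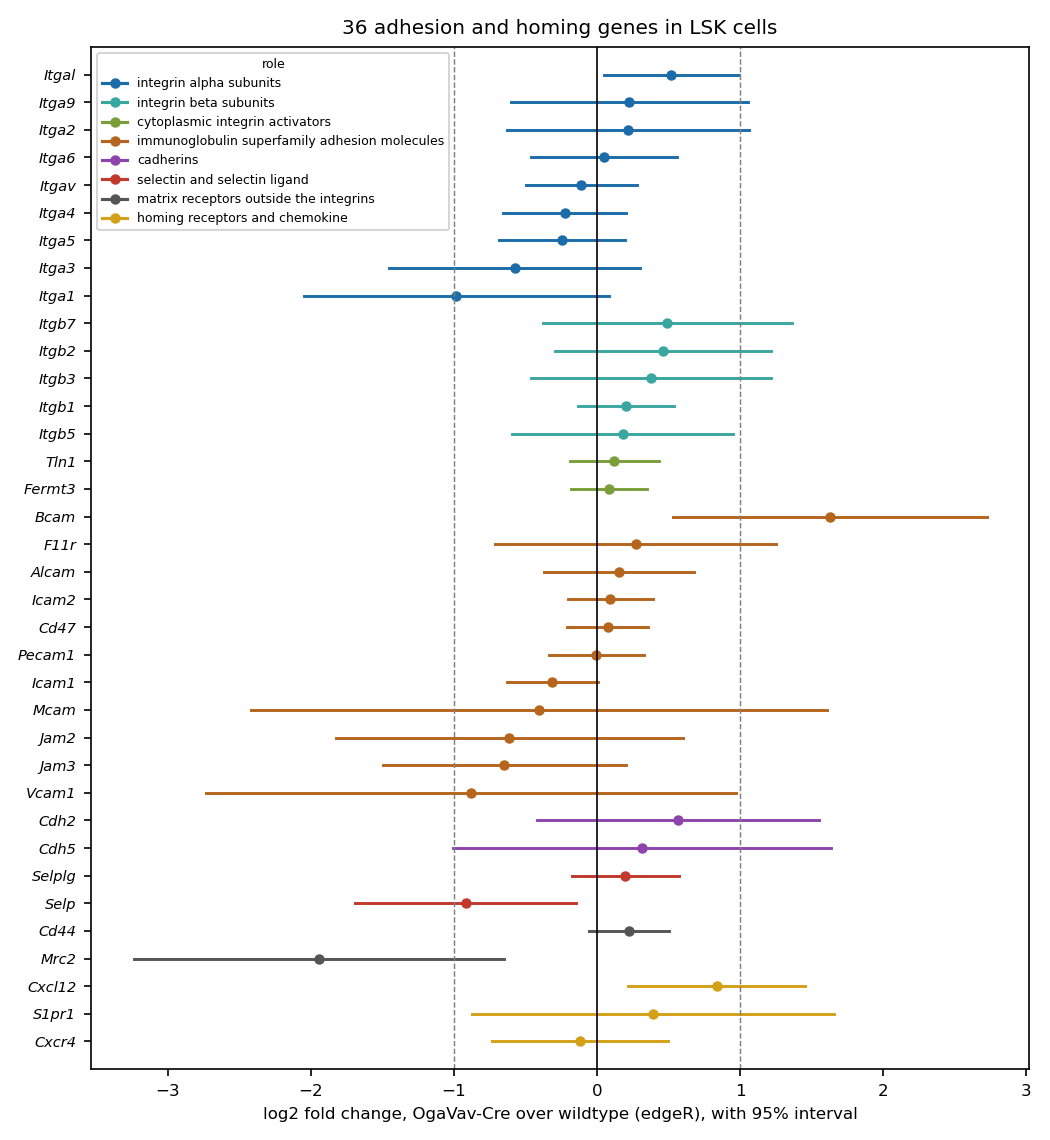
Log2 fold change of OgaVav-Cre over wildtype for each member (point, edgeR) with its 95% interval (line), grouped and coloured by role; dashed lines mark the cutoff of 1 in either direction. Bcam (1.63) lies farthest to the right and Mrc2 (-1.94) farthest to the left, and the narrowest intervals belong to abundant members such as Fermt3 and Cd47.

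Bcam showed the largest positive fold change among the members. It encodes the basal cell adhesion molecule, also called Lutheran, an immunoglobulin superfamily receptor for laminin that contains the alpha-5 chain. Its locus on the minus strand at chr7:20341480-20356365 (mm9, 17 exons) held 197, 366 and 97 reads in OgaVav-Cre replicates 1 to 3 and 57, 53 and 76 reads in wildtype replicates 1 to 3. All OgaVav-Cre libraries lay above all wildtype libraries, but replicate 3, at 3.54 CPM, lay just above the highest wildtype library, at 3.21 CPM. The means were 8.92 ± 5.47 CPM (SD, n = 3) and 2.88 ± 0.294 CPM, a ratio of 3.10. The log2 fold change was 1.63 (SE 0.472, 95% interval 0.53 to 2.72) with an adjusted p of 0.412 and an unadjusted p of 0.00921 in edgeR. Leaving out OgaVav-Cre replicate 2, the highest library, brought it to 1.09, and leaving out replicate 3 to 2.01, and its unadjusted p stayed under 0.05 in all 6 fits with 1 library left out. The DESeq2 Wald test, which the study used, called Bcam higher (log2 fold change 1.64, adjusted p 0.0347), while the adjusted p over all alternatives ran up to 0.862. The 2 loci that overlap Bcam had at most 4 reads in any library. The 8 erythroid markers, none at 0 in any library, summed in replicate order to 738, 231 and 2382 CPM in OgaVav-Cre. In wildtype they summed to 545, 456 and 746 CPM. The part of erythroid RNA in the Bcam values was not tested.

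Mrc2 lay at the opposite end. It encodes Endo180, a receptor that takes up collagen, and at chr11:105153957-105212459 on the plus strand it had 43, 24 and 31 reads in the OgaVav-Cre libraries against 141, 33 and 165 reads in the wildtype libraries. Wildtype replicates 1 and 3 stood high, while wildtype replicate 2 lay among the OgaVav-Cre libraries at 1.71 CPM, below the 1.91 CPM of OgaVav-Cre replicate 1, so the genotypes overlapped. The means were 1.33 ± 0.508 CPM and 5.10 ± 2.94 CPM (SD, n = 3). The log2 fold change was -1.94 (SE 0.558, 95% interval -3.24 to -0.65), with an adjusted p of 0.412 and an unadjusted p of 0.00879 in edgeR. DESeq2 called it lower (log2 fold change -1.93, adjusted p 0.0416). Over all alternatives the adjusted p ranged from 0.0416 to 0.862. The DESeq2 calls of Bcam and Mrc2 made 2 of 36 members (5.56%) against 0.527% of the loci that DESeq2 tested. The rise of Bcam was known from the study before the members were chosen, so this share is not independent of that result. The unadjusted p of Mrc2 in edgeR stayed under 0.05 in all 6 fits with 1 library left out, at log2 fold changes of -2.35 to -1.65. The within-wildtype spread of Mrc2 was at the 98.5th percentile among loci of like level.

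Cxcl12, the chemokine of the niche itself, was read in the sorted cells at 3.89 RPKM on average. Its reads on the plus strand at chr6:117118553-117131386 were 1095, 821 and 1650 in the OgaVav-Cre libraries against 454, 453 and 811 in the wildtype libraries. The highest wildtype library, at 34.3 CPM, lay above the lowest OgaVav-Cre library, at 32.5 CPM, and the other libraries were separated. The means of 47.1 ± 13.9 CPM and 26.4 ± 6.97 CPM (SD, n = 3) gave a log2 fold change of 0.84 (SE 0.266, 95% interval 0.22 to 1.45). The adjusted p was 0.412 and the unadjusted p 0.0144 in edgeR, and 5 of the 6 fits with 1 library left out kept an unadjusted p under 0.05, wildtype replicate 1 being the exception. Marrow stroma is the known main source of Cxcl12. The 9 stromal markers summed to 38.2 to 51.8 CPM in the OgaVav-Cre libraries against 39.6 to 48.7 CPM in the wildtype libraries, with Pdgfrb at 21.0 to 37.1 CPM making up most of it, and Col3a1, Dcn or Lum at 0 in 1 or more libraries. Among them Lepr was at 2.838, 4.036 and 3.685 CPM in OgaVav-Cre against 1.499, 1.971 and 2.877 CPM in wildtype, in replicate order. For Lepr, OgaVav-Cre replicate 1 lay just below wildtype replicate 3, and the other libraries were separated. Pdgfrb was lowest in OgaVav-Cre replicate 3 and highest in wildtype replicate 2, and the genotypes overlapped for each of the 9 markers. The part of stromal RNA in the Cxcl12 values was not tested.

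Selp encodes P-selectin, which platelets and endothelium display when activated. At chr1:166045395-166080157 on the plus strand it had 243, 480 and 194 reads in the OgaVav-Cre libraries against 529, 470 and 485 in the wildtype libraries. Every OgaVav-Cre library lay below every wildtype library, most narrowly for OgaVav-Cre replicate 2 at 19.0 CPM against wildtype replicate 3 at 20.5 CPM. The means were 12.3 ± 6.10 CPM and 23.2 ± 2.36 CPM (SD, n = 3), with a log2 fold change of -0.92 (SE 0.333, 95% interval -1.69 to -0.15). The adjusted p was 0.437 and the unadjusted p 0.0255 in edgeR, and 3 of the 6 fits with 1 library left out kept an unadjusted p under 0.05. Without OgaVav-Cre replicate 2 the log2 fold change was -1.38 and without replicate 3 it was -0.64. The 10 megakaryocyte and platelet markers summed to 55.5 to 99.3 CPM in the OgaVav-Cre libraries against 64.7 to 87.3 CPM in the wildtype libraries. Gp6 and Clec1b were at 0 in 1 or more libraries. The 10 endothelial markers, none at 0, summed to 92.3 to 163 CPM and 95.5 to 167 CPM. Single endothelial markers did not all follow the sum, which was lowest in OgaVav-Cre replicate 3. In that library Tek, Tie1, Emcn and Egfl7 were the lowest of all libraries, and Kdr, Plvap and Stab2 the highest. Flt1, Cldn5 and Sele were neither. The part of platelet and endothelial RNA in the Selp values was not tested. A pair of loci on the opposite strand inside Selp had 12 to 83 reads a library, and the sources used here do not say whether counting used strand.

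The sequence just upstream of the start is shown for Bcam, Cxcl12 and Selp, the members at an unadjusted p under 0.05 whose promoters were in the RefSeq table used, which held 22 of the 36 members. Each RefSeq window of 250 bases before the start (RefSeq, GRCm38.p6) had a single exact match on its chromosome in the mm9 assembly (NCBIM37), whose coordinates are given. For Bcam the 15 bases next to the start are left out because an annotated exon covers them. Capitals mark GGGCGG (GC box) or CACCC on either strand, and the GATA factor motif AGATAA, the ETS motif GGAAGT and the TATA box TATAAA were searched on both strands too.
Bcam chr7:20355897-20356131 minus strand: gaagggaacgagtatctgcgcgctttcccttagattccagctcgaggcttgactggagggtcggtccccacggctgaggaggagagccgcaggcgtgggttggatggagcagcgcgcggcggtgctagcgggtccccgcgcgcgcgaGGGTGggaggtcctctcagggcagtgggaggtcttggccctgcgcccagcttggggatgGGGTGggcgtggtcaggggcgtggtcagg
Cxcl12 chr6:117118303-117118552 plus strand: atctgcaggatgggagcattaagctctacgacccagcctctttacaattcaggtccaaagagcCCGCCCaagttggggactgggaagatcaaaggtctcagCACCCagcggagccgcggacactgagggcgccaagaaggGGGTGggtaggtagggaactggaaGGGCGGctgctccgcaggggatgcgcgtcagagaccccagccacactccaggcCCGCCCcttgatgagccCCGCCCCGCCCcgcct
Selp chr1:166045145-166045394 plus strand: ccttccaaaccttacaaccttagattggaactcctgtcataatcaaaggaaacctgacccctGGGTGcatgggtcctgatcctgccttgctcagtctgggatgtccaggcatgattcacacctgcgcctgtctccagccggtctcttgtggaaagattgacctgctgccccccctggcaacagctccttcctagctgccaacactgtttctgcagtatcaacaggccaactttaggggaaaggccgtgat

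The 3 windows differed in base composition over their 250 bases. G and C made up 70% of the Bcam window, 64.4% of that of Cxcl12 and 53.6% of that of Selp, and the CpG dinucleotide occurred 22, 14 and 3 times. Cxcl12 held 5 matches of GGGCGG, of which 2 overlap by 1 base, and Bcam and Selp held none. Bcam and Cxcl12 held 2 matches of CACCC each and Selp 1. No match of the other motifs was in these windows. Among 32851 RefSeq promoter windows of the same length, 32.7% held GGGCGG, 52% CACCC, 9.99% AGATAA, 19.7% GGAAGT and 12.4% TATAAA. The start used for Cxcl12 and Selp was the first base of the deposited locus, and for Bcam it lay 484 bases inside the locus, so the window shown is within the counted span of Bcam.

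The alpha chains of integrins decide what an integrin binds. Of 9 alpha members, 4 had a positive sign and 5 a negative one, with a median log2 fold change of -0.11, and 1 (Itgal) reached an unadjusted p under 0.05. Itgal pairs with Itgb2 to form LFA-1, the receptor for the ICAMs. Its reads were 4277, 3414 and 6063 in the OgaVav-Cre libraries against 3036, 2040 and 3137 in the wildtype libraries, and it was the alpha chain highest per length, at 24.2 ± 6.12 and 17.7 ± 2.97 RPKM (SD, n = 3). OgaVav-Cre replicate 2, at 135 CPM, lay between the wildtype libraries of 133 and 142 CPM, while replicates 1 and 3 lay above all of them. The log2 fold change was 0.52 (SE 0.204, 95% interval 0.05 to 0.99) with an adjusted p of 0.447 and an unadjusted p of 0.0353 in edgeR, and 2 of the 6 fits with 1 library left out kept an unadjusted p under 0.05.

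Itga1, the alpha chain of a collagen receptor, was read at low level. It had 38, 22 and 89 reads in the OgaVav-Cre libraries against 75, 76 and 96 reads in the wildtype libraries, and every OgaVav-Cre library, the highest of them at 3.25 CPM, lay below the lowest wildtype library at 3.51 CPM. The log2 fold change was -0.98 (SE 0.459, 95% interval -2.05 to 0.08), with an adjusted p of 0.492 and an unadjusted p of 0.0657 in edgeR. Without OgaVav-Cre replicate 3 it was -1.59, with an unadjusted p of 0.00445, without replicate 2 it was -0.63 with a p of 0.140, and in the other 4 fits with 1 library left out the p in edgeR ran from 0.0999 to 0.156. A locus that joins Pelo and Itga1 on the same strand held 335 to 478 reads a library, and how reads shared with it were divided is not given in the sources used here. Itga4, which forms the receptor for Vcam1 and fibronectin, measured 345 ± 69.4 CPM in the OgaVav-Cre libraries against 403 ± 57.5 CPM in the wildtype libraries (SD, n = 3), with a log2 fold change of -0.22 and an interval of -0.65 to 0.20. The fibronectin receptor chain Itga5 had -0.25, and the laminin receptor chains Itga6 and Itga3 had 0.05 and -0.58. Itga2, of another collagen receptor, had 0.22, Itga9, which binds tenascin and osteopontin, had 0.23, and Itgav, of the vitronectin receptors, had -0.11. None of these 7 intervals excluded 0. Without OgaVav-Cre replicate 2 the estimates of Itga2, Itga6 and Itga9 turned to -0.14, -0.22 and -0.26, and without OgaVav-Cre replicate 1 that of Itgav was 0.03.

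All 5 beta chains had a positive sign, with log2 fold changes from 0.18 for Itgb5 to 0.49 for Itgb7 and a median of 0.37. None reached an unadjusted p under 0.05 in edgeR. Itgb1 had 5137, 7100 and 5782 reads in the OgaVav-Cre libraries against 4648, 4080 and 4605 in the wildtype libraries, and its log2 fold change was 0.21 with a 95% interval of -0.13 to 0.54. The leukocyte chains Itgb2 and Itgb7 and the vitronectin receptor chain Itgb3 had estimates that rested on 1 library. Itgb3 had 470, 661 and 1633 reads in the OgaVav-Cre libraries against 593, 509 and 663 in the wildtype libraries, and without OgaVav-Cre replicate 3 its log2 fold change was -0.22 in place of 0.37. In the same way Itgb2 went from 0.46 to 0.03 and Itgb7 from 0.49 to -0.07. Itgb5 was at -0.08 without wildtype replicate 1 and at 0.42 without wildtype replicate 3, and Itgb1 at 0.08 without OgaVav-Cre replicate 2. The LFA-1 pair was thus 0.52 for Itgal and 0.46 for Itgb2 with all libraries and 0.36 and 0.03 without OgaVav-Cre replicate 3. That library also held the highest marker sum of neutrophils and monocytes (2724 CPM against 649 to 1827 CPM elsewhere). Its sums of B cells and of T and NK cells (215 CPM against 87.0 to 154 CPM for the latter) were highest too. None of these 12, 8 and 9 markers was at 0 in any library. Single markers did not all follow the sums. Elane, Mpo, Prtn3, Ctsg, Ccr2, Vpreb1, Igll1, Klrb1c and Ncr1 were highest in wildtype replicate 1. Ly6c2 was highest in OgaVav-Cre replicate 1 and Nkg7 in OgaVav-Cre replicate 2. The part of these cells in the beta chain values was not tested.

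The intracellular activators were among the least variable members. Tln1 had 10055, 12822 and 13814 reads in the OgaVav-Cre libraries against 10280, 7746 and 10801 in the wildtype libraries, with a log2 fold change of 0.12 (95% interval -0.19 to 0.43). Fermt3, which encodes kindlin-3 of blood cells, measured 195 ± 5.01 CPM and 184 ± 12.1 CPM (SD, n = 3), a log2 fold change of 0.08 (interval -0.18 to 0.35), and its spread among OgaVav-Cre libraries lay at the 3.95th percentile of loci of like level.

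Among the 11 immunoglobulin superfamily members, 5 had a positive and 6 a negative sign, with a median log2 fold change of -0.01. Icam1, the ligand of LFA-1, had 928, 1054 and 975 reads in the OgaVav-Cre libraries against 917, 1051 and 1174 in the wildtype libraries. In CPM every OgaVav-Cre library lay below every wildtype library, with 41.7 CPM the highest of the former and 43.0 CPM the lowest of the latter. Its log2 fold change was -0.31 (SE 0.137), with an adjusted p of 0.475 and an unadjusted p of 0.0528 in edgeR. A locus on the opposite strand over the end of Icam1 had 267 to 352 reads a library. Icam2, a second ICAM, had a log2 fold change of 0.09 (interval -0.21 to 0.39). Cd47, the member of this family highest per length, had 11116, 12303 and 14774 reads in the OgaVav-Cre libraries against 10496, 8738 and 11775 in the wildtype libraries and a log2 fold change of 0.07 (interval -0.21 to 0.36). Pecam1 was at -0.01 (interval -0.34 to 0.33) and Alcam at 0.15 (interval -0.37 to 0.67). The junctional adhesion molecules were less precise, with F11r at 0.27 (interval -0.71 to 1.25), Jam2 at -0.61 (interval -1.82 to 0.60) and Jam3 at -0.65 (interval -1.49 to 0.20). With 1 library left out F11r ran from -0.06 without OgaVav-Cre replicate 2 to 0.70 without wildtype replicate 2. The same libraries set the range of Jam2, from -1.12 to -0.10, and of Jam3, from -0.85 to -0.26. Mcam, at few reads, was at -0.41 with an interval of -2.42 to 1.61, and at 0.60 without wildtype replicate 3.

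**Figure D3:**
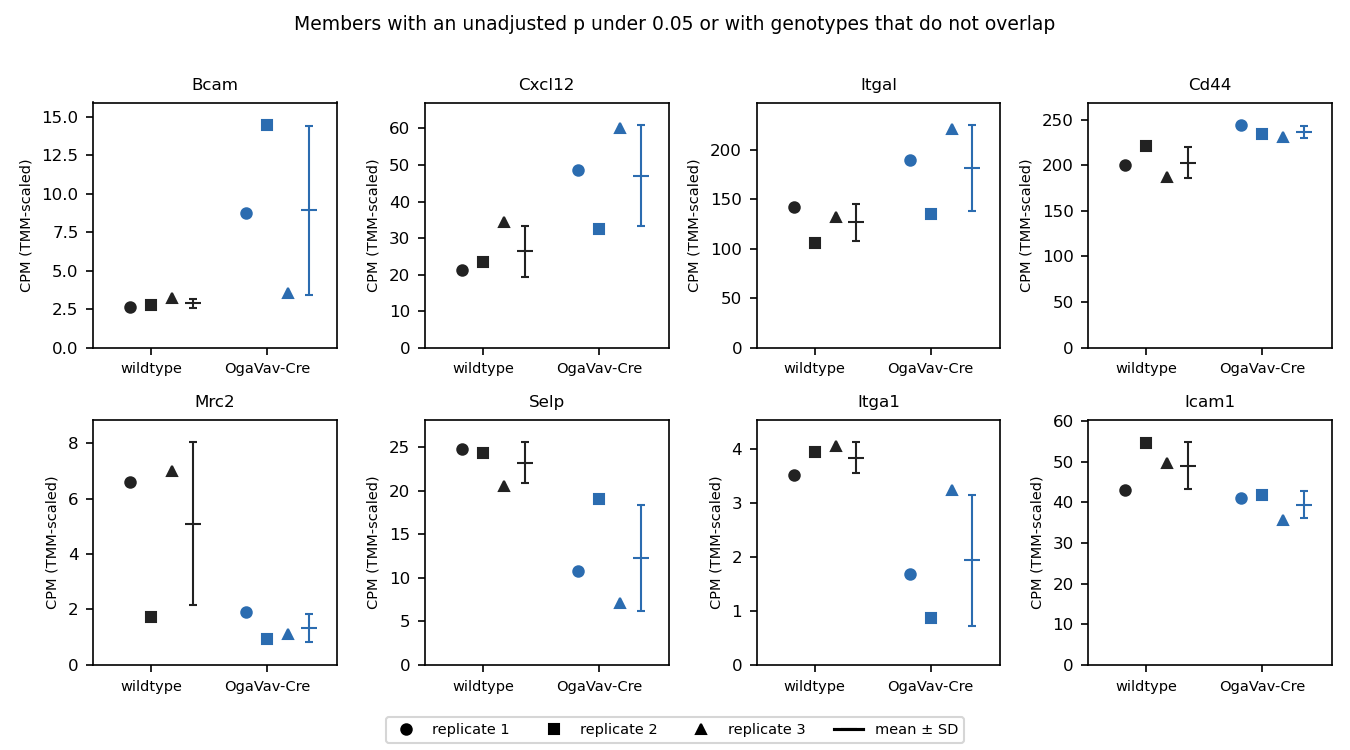
CPM after TMM scaling in each library for the 8 members with an unadjusted p under 0.05 or with genotypes that do not overlap; symbols mark the replicate number and bars the mean and SD of 3 libraries. Wildtype values of Bcam sit between 2.67 and 3.21 CPM with OgaVav-Cre spread from 3.54 to 14.5 CPM, and in Mrc2 the spread is in wildtype.

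Vcam1, the counter-receptor of the Itga4 and Itgb1 pair, varied more between libraries of 1 genotype than between genotypes. Its reads were 388, 435 and 2320 in the OgaVav-Cre libraries against 960, 504 and 3511 in the wildtype libraries. Replicate 3 stood high in both genotypes, with 84.6 and 149 CPM against 17.2 to 45.0 CPM in the other 4 libraries. The spread lay at the 99.1st percentile among loci of like level within OgaVav-Cre and at the 99.2nd percentile within wildtype. The log2 fold change of -0.88 (SE 0.798, 95% interval -2.74 to 0.97, unadjusted p 0.302 in edgeR) changed sign to 0.16 without wildtype replicate 3 and was -2.09 without OgaVav-Cre replicate 3, with an unadjusted p of 0.0161 there. Marrow macrophages carry Vcam1, and the 12 macrophage markers, none at 0 in any library, summed to 108, 102 and 329 CPM in the OgaVav-Cre libraries against 202, 122 and 508 CPM in the wildtype libraries, in replicate order. The libraries stood in the same order in both measures, apart from OgaVav-Cre replicates 1 and 2, which were both at 17.2 CPM of Vcam1. Adgre1, which encodes the macrophage antigen F4/80, was at 14.2 CPM in OgaVav-Cre replicate 3 and 26.8 CPM in wildtype replicate 3, against 2.26 to 6.98 CPM elsewhere. Their part in the Vcam1 values was not tested.

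**Figure D4:**
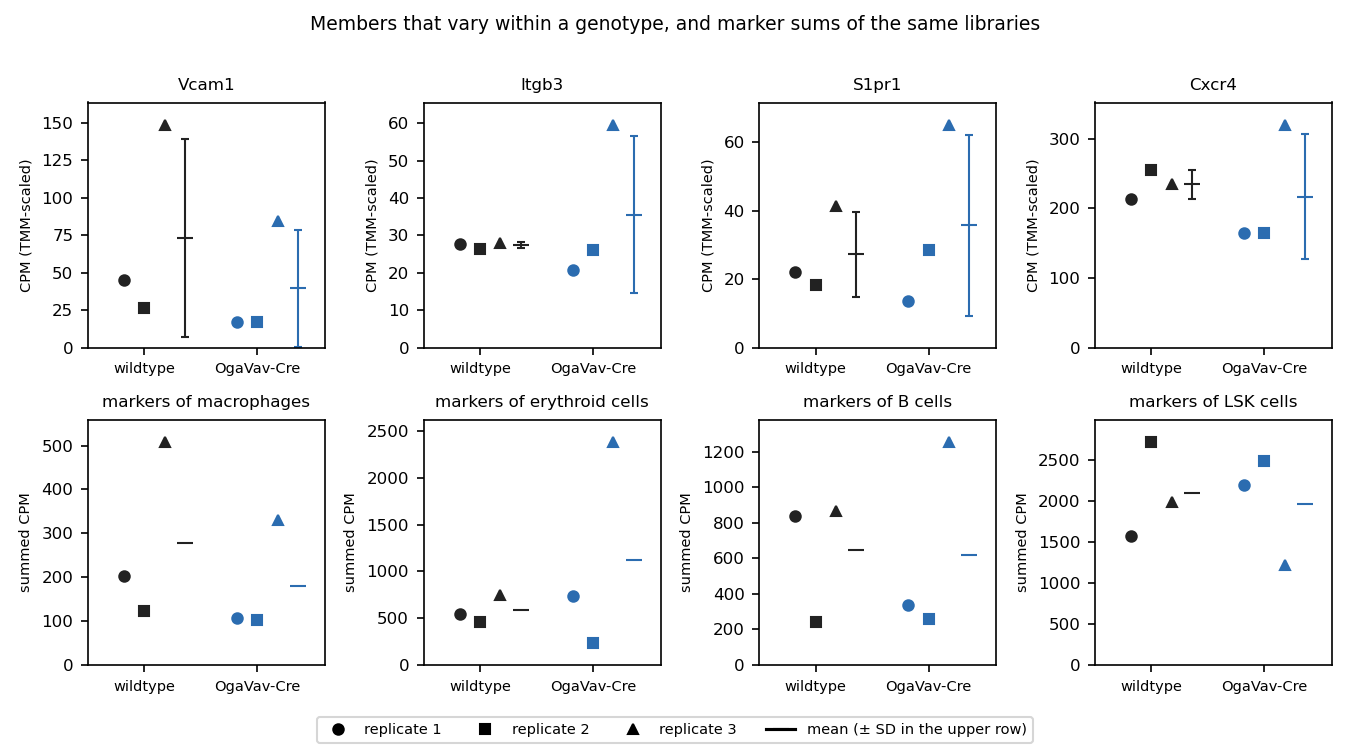
Upper row, CPM after TMM scaling of Vcam1, Itgb3, S1pr1 and Cxcr4 in each library, with mean and SD of 3 libraries; lower row, summed CPM of the macrophage, erythroid, B cell and LSK markers in the same libraries, with the mean. OgaVav-Cre replicate 3 (blue triangle) is the highest for Itgb3, S1pr1, Cxcr4 and the erythroid and B cell sums and the lowest for the LSK sum, and the Vcam1 and macrophage panels have wildtype replicate 3 highest.

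The homing receptors also turned on OgaVav-Cre replicate 3. Cxcr4 had 3718, 4167 and 8766 reads in the OgaVav-Cre libraries against 4561, 4925 and 5558 in the wildtype libraries, so that replicates 1 and 2 lay below all wildtype libraries, at 165 CPM each, and replicate 3 above all of them, at 320 CPM. The log2 fold change was -0.12 with all libraries (95% interval -0.73 to 0.50) and -0.51 without that library, with an unadjusted p of 0.00818 in edgeR. S1pr1, the sphingosine 1-phosphate receptor that guides cells out of tissues into blood, had 305, 722 and 1784 reads in the OgaVav-Cre libraries against 471, 350 and 980 in the wildtype libraries. Its log2 fold change of 0.39 (interval -0.88 to 1.66) became -0.37 without OgaVav-Cre replicate 3. Of the Cxcl12 and Cxcr4 pair, then, the ligand had 0.84 with all libraries and 0.62 without replicate 3, and the receptor -0.12 and -0.51.

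The remaining members belonged to smaller roles. Cd44, the hyaluronan receptor, had 5509, 5921 and 6329 reads in the OgaVav-Cre libraries against 4265, 4254 and 4418 in the wildtype libraries, with every OgaVav-Cre library above every wildtype library. The means were 236 ± 6.95 CPM and 202 ± 17 CPM (SD, n = 3), a ratio of 1.17, and the log2 fold change was 0.22 (95% interval -0.06 to 0.50) with an unadjusted p of 0.101 and an adjusted p of 0.535 in edgeR. Selplg, which encodes the P-selectin ligand PSGL-1, had 3920, 4266 and 6503 reads in the OgaVav-Cre libraries against 3760, 3012 and 4090 in the wildtype libraries, and a log2 fold change of 0.20 (interval -0.18 to 0.57). The selectin and its ligand thus had estimates of opposite sign, -0.92 and 0.20, and the interval of the second held 0. The cadherins were low. Cdh5, the VE-cadherin of endothelium, had 38, 93 and 238 reads in the OgaVav-Cre libraries against 115, 61 and 66 in the wildtype libraries, with a log2 fold change of 0.31 that became -0.49 without OgaVav-Cre replicate 3. Cdh2, N-cadherin, had 40 to 68 reads in the OgaVav-Cre libraries against 23 to 44 in the wildtype libraries, with 0.57 (interval -0.42 to 1.55).

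Seen over all members, spread within a genotype was common. The highest library was more than 2 times the lowest for 15 members within OgaVav-Cre and for 8 within wildtype. Within OgaVav-Cre 13 members, and within wildtype 9, had an SD of log2(CPM + 1) above the 90th percentile of loci of like level, and 5 members did in both (Vcam1, S1pr1, Itgb2, Itgb7 and F11r). OgaVav-Cre replicate 3 was the highest of the 6 libraries for 12 members (33.3%), against 16.1% of all loci tested, and replicate 2 for 10 members (27.8%), against 18.6%. Without replicate 3 the members at an unadjusted p under 0.05 numbered 7 (19.4%), against 14.3% of the loci tested in that fit. Bcam and Cxcl12 were higher, against 6.2% of loci, and Mrc2, Selp, Itga1, Cxcr4 and Vcam1 were lower, against 8.09% of loci, while 19 members had a positive and 17 a negative sign. The smallest adjusted p in that fit was 0.149, for Bcam, whose rise was known before the members were chosen.

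**Figure D5:**
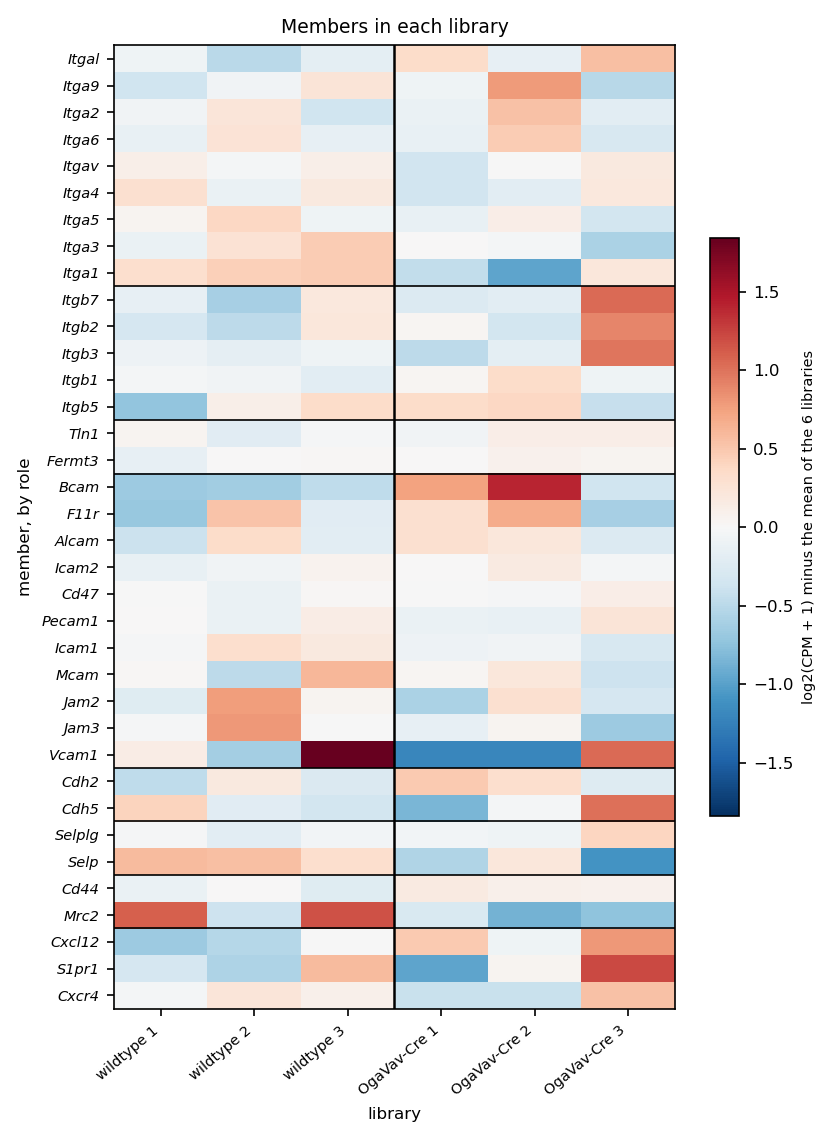
Deviation of log2(CPM + 1) from the mean of the 6 libraries for each member (rows, grouped by role) and library (columns, wildtype left of the line and OgaVav-Cre right), red above and blue below the mean. OgaVav-Cre replicate 3 is red for Itgb2, Itgb3, Itgb7, Cdh5, S1pr1 and Vcam1, and Bcam is reddest in OgaVav-Cre replicate 2.

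Other genes of the same pathways were read from 5 lists of 91 genes in all, of which 78 passed the filter. None was called by edgeR, DESeq2 or limma-voom. At an unadjusted p under 0.05 there was 1 gene higher and 3 lower, the genotypes did not overlap for 4 genes higher and 5 lower, and the median log2 fold change was 0.06. These were 5.13% and 11.5% of the 78 genes, against 10.6% and 17.5% of all loci tested. Among 8 other integrin subunits tested Itga10, a collagen receptor chain, was lower, with 18, 9 and 26 reads in the OgaVav-Cre libraries against 40, 28 and 44 in the wildtype libraries (log2 fold change -1.30). Among 9 matrix ligands tested 2 laminin chains were lower. Lama5, the alpha-5 chain that Bcam binds, had 41, 37 and 35 reads in the OgaVav-Cre libraries against 42, 93 and 72 in the wildtype libraries (log2 fold change -1.11), and Lamb2 had 65, 64 and 61 against 67, 125 and 137 (log2 fold change -1.01). Among 24 other adhesion receptors and junction genes the tetraspanin Cd82 was higher, with 1419, 1476 and 1970 reads against 963, 947 and 1376 (log2 fold change 0.34). The unadjusted p of these 4 genes ran from 0.0161 for Lamb2 to 0.0430 for Cd82, with adjusted p from 0.412 to 0.460 in edgeR. None of the 25 adhesion complex genes or of the 12 other homing genes tested, Kit and the remaining sphingosine 1-phosphate receptors among them, reached an unadjusted p under 0.05.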

How the data were processed

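RNA-Seq was measured in LSK cells of 3 OgaVav-Cre and 3 wildtype mice, grouped by the genotype in the labels. Per the study's methods, single-end 50 bp reads were aligned to mm9 and analysed with Genomatix, and CASAVA 1.8.2 is named in the submitters' processing notes. The counting rule, its use of strand and the treatment of multiply mapped reads are not given in the sources used here. The authors deposited raw read counts per locus and RPKM values per library, with the counted length, and both were used as deposited. Columns of the authors' own comparison in the table (fold changes and p-values) were not used.

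Counts of all loci were tested with edgeR 4.0.16 (R 4.3.3) by the quasi-likelihood test after filterByExpr and TMM scaling, with genotype as the only term and Benjamini-Hochberg adjustment over 22032 loci. The biological coefficient of variation was 0.308. Calls needed an adjusted p under 0.05 and a log2 fold change beyond 1, the study's cutoffs. CPM values are TMM-scaled, and the SE is the log2 fold change divided by the square root of F. Percentiles of spread compare a member with loci in the same of 10 classes of mean CPM, using a pseudocount of 1. Alternatives were RLE scaling, other filters, removal of immunoglobulin loci, DESeq2 1.42.0, limma 3.58.1 with voom or on log2(RPKM + 0.1) and log2(RPKM + 1), summed loci, a replicate block and each library left out. Scripts were tested on simulated counts. The labels give 3 mice a genotype for the 3 libraries. In edgeR the genotype difference was tested against the spread between these libraries, moderated with that of all loci tested. Of the members, 23 overlap another locus. Counts of 3 reads or fewer were taken as the floor, which covers counting error only.

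The members, the 5 pathway lists and the marker lists were chosen with earlier results of these data known. Reads per library are given for members at an unadjusted p under 0.05, members whose genotypes do not overlap, the member highest per length in each role, and Bcam, Vcam1 and Mrc2. Those of Itgb3, S1pr1 and the ranges for Mcam and Cdh2 were added after their values were seen. Pathway genes are named at an unadjusted p under 0.05. Promoter windows came from RefSeq and were placed on NCBIM37 by exact match.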

Additional observations from a re-analysis of the deposited data

How the results depend on the processing

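The count of members called was 0 in every alternative except DESeq2, which called 2 (Bcam and Mrc2), and no pathway gene was called in any of them. Members at an unadjusted p under 0.05 numbered 5 in edgeR, 5 or 6 under the other scalings, filters and tools, and 3 to 7 with 1 library left out. The loci called in all numbered 7 in edgeR, 21 with no filter on low counts, 4 with at least 10 reads in every library, 116 by DESeq2, 4 on log2(RPKM + 1) and 3 to 9 with 1 library left out. The cause of these differences was not tested. Genotypes did not overlap for 5 members also under RLE scaling and in RPKM. Of the 144 alternative fold changes computed for 9 members, 1 changed sign, that of Vcam1 (0.16 without wildtype replicate 3, within a range of -2.09 to 0.16 over single libraries left out). These 9 were Vcam1 and the members at an unadjusted p under 0.05 in edgeR or with genotypes that do not overlap. A change of sign was therefore unlikely beforehand for most of them. Other members did change sign in edgeR with 1 library left out, namely Itga2, Itga6, Itga9, Itgav, Itgb3, Itgb5, Itgb7, Mcam, Pecam1, F11r, Cdh5, Cxcr4 and S1pr1. On log2(RPKM + 1), which shrinks changes of low genes, Mrc2 was at -0.50, Itga1 at -0.17 and Bcam at 0.80, against -1.94, -0.98 and 1.63 in edgeR.

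Replicate numbers were shared between the genotypes in the labels, with no statement that a number marks a litter, batch or day. Deviations of same-numbered libraries correlated at -0.081, 0.26 and 0.316 across loci, against -0.381 to 0.206 for libraries of unlike number. The values of replicates 2 and 3 were thus the highest of all, and that of replicate 1 was not. These values do not settle whether the numbers pair the mice, and the main fit used no pairing. With the replicate block 8 members had an unadjusted p under 0.05, none was called and 6 loci were called.

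For members with few reads, such as Mcam, Jam2 and Cdh2, the 95% intervals reached past a log2 fold change of 1 in 1 or both directions. So did intervals of members with more reads and wide spread within genotypes. Examples are S1pr1 (-0.88 to 1.66), Itgb7 (-0.38 to 1.36) and Vcam1 (-2.74 to 0.97).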
